A study of Mus musculus with 12 samples.

Results

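De novo lipogenesis genes were taken as the rows of the deposited gene table whose symbol was Fasn, Acaca, Acacb, Acly, Scd1, Scd2, Elovl6, Srebf1, Me1 or Thrsp. All 10 had a row, among 30743 rows in all. The table came from polyA RNA of whole livers of male C57BL/6J fetuses harvested at 15 ± 0.5 dpc (days post coitum), 6 from dams on a control diet with 13.5 kcal% fat and 6 from dams on a high-fat diet (HFD) with 60 kcal% fat. Both cohorts of dams had been on their diet for 12 to 14 weeks, and the labels do not say which fetuses shared a dam. The table used here gives 1 average level per gene over all 12 livers, so the levels below mix both diets and have no SD. A difference between the diets is not given, because the other columns hold only the comparison made by the authors, which was not used, and no column holds a single liver.

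De novo lipogenesis builds fatty acids from citrate that leaves the mitochondria. ATP citrate lyase (Acly) releases acetyl-CoA, acetyl-CoA carboxylase turns it into malonyl-CoA, and fatty acid synthase (Fasn) joins these units into palmitate with NADPH that malic enzyme (Me1) helps to supply. Elovl6 lengthens palmitate, the stearoyl-CoA desaturases (Scd1 and Scd2) insert a double bond, and the transcription factor gene Srebf1 and the nuclear protein gene Thrsp are known as regulators of the pathway in adult liver and fat. The fetal liver is at this age both a developing metabolic organ and the main site of blood formation. RNA of whole liver therefore comes from hepatocytes and blood cells together, and the cell type behind a level cannot be told from this table.

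Levels are given as CPM, counts scaled to a fixed library total and not corrected for gene length. They were computed from the deposited average log2 CPM by subtracting the value shared by all rows without reads, which was -2.71 on the log2 scale. The rows with a single read in the 12 livers stood out as a separate step, at 0.00625 to 0.00644 CPM, and the next step began at 0.0125 CPM. Low levels could therefore be read as numbers of reads summed over all livers. By this step, 1 CPM was worth about 158 reads summed over the 12 livers. A count of 0 allows, as a one-sided limit, a level of up to 3 reads, or 0.0190 CPM, and the upper end of the two-sided 95% exact Poisson interval used below for other counts is then 3.69 reads. Both cover counting error only.

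The lipogenesis genes fell into 2 sets of levels. Scd2, Fasn, Scd1 and Acaca lay above 10 CPM and held 99.9% of the summed CPM of the 10 genes. Acacb lay at 1.04 CPM, and Acly, Thrsp, Elovl6, Srebf1 and Me1 lay under 1 CPM. Above 10 CPM were thus 4 of 10 lipogenesis genes, or 40%, and 5508 of all rows, or 17.9%. Under 1 CPM were 5 of the 10, against 68.1% of all rows, 11091 of which were listed without reads. These are descriptions with no test.

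**Figure D1:**
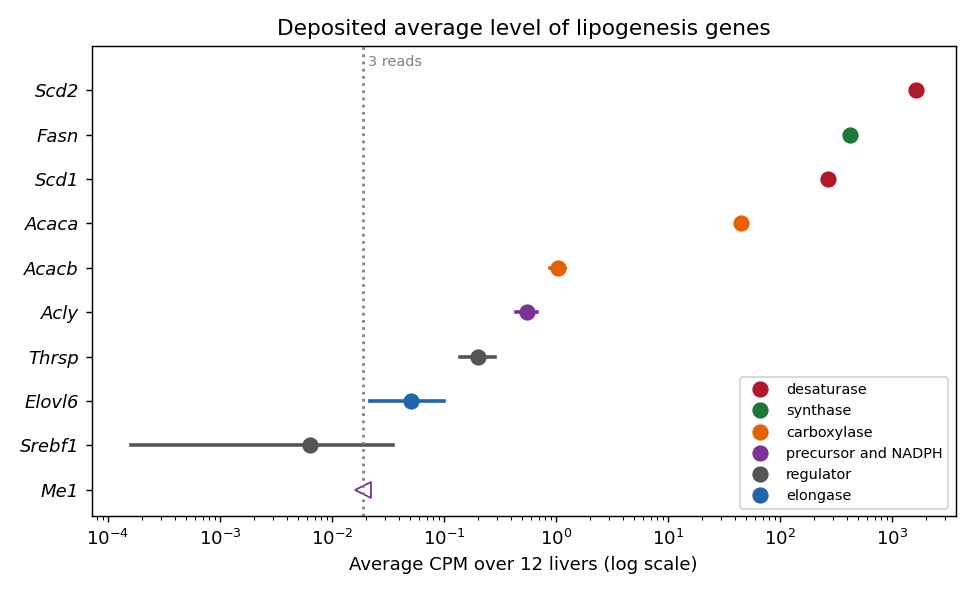
Average CPM of each lipogenesis gene over 12 livers on a log axis, coloured by role. Bars are 95% exact Poisson intervals of the summed reads for genes with at most 200 reads, and the open triangle puts Me1, listed without reads, at the limit of 3 reads. The 4 genes from Scd2 to Acaca lie above 10 CPM, and Srebf1 lies at a single read.

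The desaturases carried most of the reads of the pathway. Scd2, the desaturase known from brain and from early development, is encoded on chromosome 19 of GRCm38 (the build of mm10) from 44293674 to 44306864 on the plus strand. Its deposited average log2 CPM was 10.69, or 1647 CPM, which was 69.2% of the summed CPM of the 10 genes and rank 54 of all rows. Scd1, the main desaturase of adult liver, lies on the same chromosome from 44394455 to 44407879 on the minus strand. Its deposited average log2 CPM was 8.07, or 268 CPM, at percentile 97.4 of the 19652 rows with reads. Divided by the length of the merged exons, Scd2 had 301 CPM per kilobase and Scd1 had 54.9, so the level per kilobase of Scd2 was 5.49 times that of Scd1. The related desaturase genes Scd3 and Scd4, chosen after their values were seen, had 0.529 and 0.642 CPM, and 0.149 and 0.170 CPM per kilobase.

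Because Scd1 and Scd2 are close relatives, the share of sequence in which a read could come from either gene bears on these values. Over 1065 aligned coding bases of the GENCODE M21 transcripts, 962 were identical (90.3%) and 103 differed. The longest run without a difference was 147 bases, and 14.3% of the 50-base stretches of the Scd1 coding sequence also stood in that of Scd2. Over the whole transcript, which holds long noncoding ends, 4.66% of the 50-base stretches of Scd1 and 4.01% of those of Scd2 stood in any transcript of another gene. How the authors counted reads from such shared stretches is not given in the sources used here. The stretches are shown to let the closest and a distant part of the genes be compared, with bases that differ between them in capitals. The first is identical in both genes and lies at coding bases 523 to 669 of Scd1 (chr19:44401693-44401805 and chr19:44400341-44400374, minus strand) and 532 to 678 of Scd2 (chr19:44299702-44299814 and chr19:44301212-44301245, plus strand). The others are the gap-free 60-base windows that were least alike, with 24 differences, at chr19:44406634-44406693 on the minus strand for Scd1 and chr19:44294980-44295039 on the plus strand for Scd2.
Scd1 and Scd2, shared: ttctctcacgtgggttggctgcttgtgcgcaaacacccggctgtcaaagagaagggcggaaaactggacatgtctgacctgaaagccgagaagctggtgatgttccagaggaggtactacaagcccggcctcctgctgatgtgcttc
Scd1, least alike: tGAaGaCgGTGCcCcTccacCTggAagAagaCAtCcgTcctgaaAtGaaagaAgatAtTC
Scd2, least alike: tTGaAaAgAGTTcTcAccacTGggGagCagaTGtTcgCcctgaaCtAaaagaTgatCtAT

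**Figure D2:**
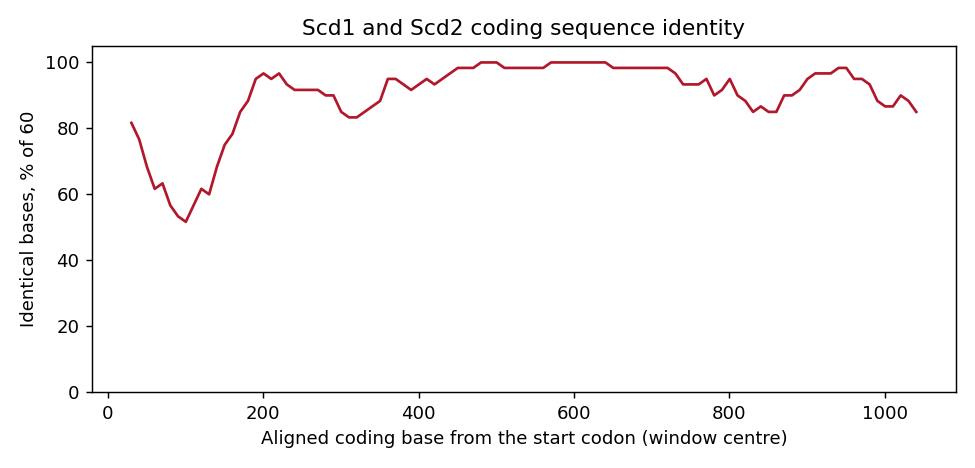
Identical bases as a percentage of 60 aligned coding bases of Scd1 and Scd2, plotted at the centre of windows moved by 10 bases along the alignment. Gaps count as differences. Of 102 windows 11 are identical throughout, and the lowest, which holds a gap, is at 51.7%.

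Fasn, the enzyme that assembles palmitate, lies on chromosome 11 from 120805846 to 120824547 on the minus strand. Its deposited average log2 CPM was 8.71, or 418 CPM, at percentile 98.5 of the rows with reads, and it gave 17.6% of the summed CPM of the 10 genes. Its merged exons are 10947 bases long, against 4892 for Scd1. Per kilobase, Fasn had 38.2 CPM, below Scd1, although its CPM was above that of Scd1. None of its 50-base stretches stood in a transcript of another gene.

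The carboxylase genes were listed far apart. Acaca encodes the cytosolic acetyl-CoA carboxylase that feeds fatty acid synthesis and lies on chromosome 11 from 84129672 to 84401651 on the plus strand. It had a deposited average log2 CPM of 5.48, or 44.6 CPM. Acacb encodes the form at the mitochondrial surface, whose malonyl-CoA restrains fatty acid oxidation, and lies on chromosome 5 from 114146535 to 114250761 on the plus strand. It had a deposited average log2 CPM of 0.25, or 1.04 CPM, which was about 163 reads over all livers (95% interval 139 to 190). Per kilobase of merged exons Acaca had 2.61 CPM and Acacb 0.108, a ratio of 24.3, and with the length of the longest coding transcript the ratio was 39.8. The coding sequences were 71.4% identical, with no run over 29 bases and no shared 50-base stretch. In contrast, 52.6% of the 50-base stretches of the Acaca transcript stood in Gm5182, a gene with no row in the table, so the level of Acaca may lack reads that matched both places. Its part in the level was not tested.

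**Figure D3:**
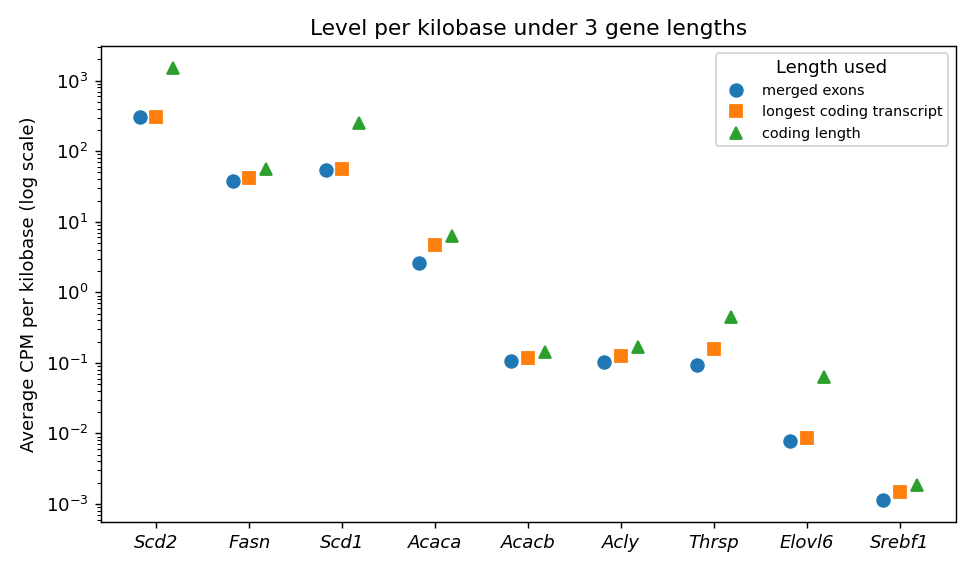
Average CPM per kilobase of the 9 lipogenesis genes with reads on a log axis, with 3 gene lengths marked by different symbols. Scd2 stays highest and Scd1 stays above Fasn with each length, while Acacb, Acly and Thrsp change order.

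Among the lipogenesis genes, those that supply precursors and NADPH, Acly and Me1, were listed low. Acly, on chromosome 11 from 100476353 to 100528000 on the minus strand, had a deposited average log2 CPM of -0.52, or 0.547 CPM, about 86 reads over all livers (95% interval 68.8 to 106). Per kilobase of merged exons, Fasn was 369 times as high as Acly. Me1, on chromosome 9 from 86581371 to 86695953 on the minus strand, was listed without reads. No 50-base stretch of the Acly transcript stood in another gene, whereas 32.8% of those of Me1 stood in 3 other genes, with the largest share in Gm7049, which has no row in the table. The part of these shared stretches was not tested.

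Elovl6 and the regulators were also listed under 1 CPM. Elovl6, on chromosome 3 from 129532355 to 129638495 on the plus strand, had a deposited average log2 CPM of -2.30, or 0.0510 CPM, which was 8 reads over all livers (95% interval 3.45 to 15.8). Thrsp, on chromosome 7 from 97412938 to 97417730 on the minus strand, had -1.50, or 0.201 CPM, and 32 reads (95% interval 21.9 to 45.2). Srebf1, on chromosome 11 from 60199089 to 60222581 on the minus strand, had -2.66, the value of a single read among the 12 livers (95% interval 0.0253 to 5.57).

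**Figure D4:**
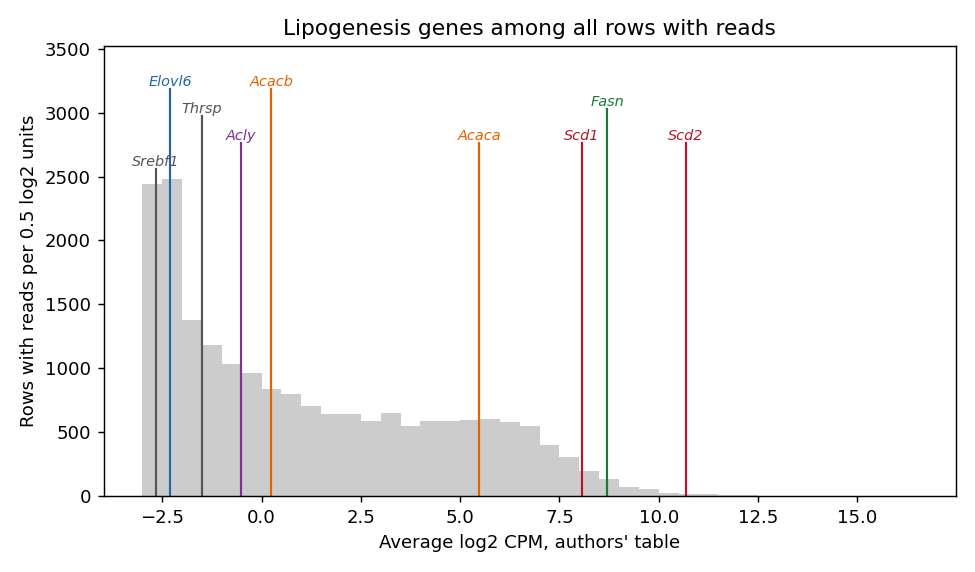
Histogram of deposited average levels (log2 CPM) for 19652 rows that had reads, in bins of 0.5, with a line at each lipogenesis gene that had reads. Scd1, Fasn and Scd2 stand in the upper tail, and Srebf1 and Elovl6 in the 2 lowest bins.

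The low values cannot be read as absent expression, because some genes that every cell uses were listed just as low. Of 79 cytosolic ribosomal protein genes, a list added after the values were seen, 78 had a row and 12 were under 1 CPM. That was 15.4%, against 50% of the lipogenesis genes and 68.1% of all rows. Above 10 CPM were 47 of the 78, and Rps21, Rps25, Rps27a and Rps28 were listed without reads. Rpl4, of the same list, had 2440 CPM. Hadhb and Hadha encode the subunits of 1 enzyme of fatty acid oxidation. Hadhb had 0.000968 CPM per kilobase, from a single read, and Hadha, which was named after its value was seen, had 38.5. For Hadhb, 62.4% of the 50-base stretches stood in other genes and RefSeq has 3 curated transcripts, against 0.66% and 1 for Hadha. Genes with no such stretch were listed low as well, among them Acly, Thrsp, Hnf4a and Pecam1. Of these, Thrsp has 1 curated transcript, Acly 2, Hnf4a 3 and Pecam1 4. Rpl7a, chosen after its value was seen, had 81.2% of its stretches in other genes, 1 curated transcript and 221 CPM. The part of these features in the levels was not tested. For Acly, Me1, Elovl6, Srebf1 and Thrsp, the table therefore shows only what was counted under the symbol.

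Markers of the tissue were read with the same limit. Alb, the plasma protein albumin, had 63314 CPM, and 5 of 7 hepatocyte markers were above 10 CPM, while Hnf4a was listed without reads. Slc4a1, the red cell anion exchanger, had 12037 CPM, and 4 of the 5 erythroid markers with a row were above 10 CPM. Fat tissue is rich in lipogenic enzymes, and of 6 adipocyte markers Plin1, Lep and Cidec were listed without reads, Retn had 1 read and Adipoq, named after its value was seen, had 3. Fabp4, which is also made by endothelial cells and macrophages, had 39.1 CPM. All 3 markers of the neutrophil lineage were above 10 CPM, with Mpo the highest at 758 CPM, and so were all 4 of stellate cells, with Col1a1 at 468 CPM. The other lists were split. Of 3 megakaryocyte markers Pf4 had 150 CPM and 1 was under 1 CPM. Of the 3 macrophage markers with a row C1qa had 82.4 CPM and the other two were under 1 CPM, with Cd68, chosen after its value was seen, at 0.0567 CPM. Of 3 endothelial markers Kdr had 70.8 CPM and Pecam1 was listed without reads. Of 4 acinar pancreas markers none was above 10 CPM, Cpa1 was the highest at 7.89 CPM, and 2 were under 1 CPM. Hba-a1, Hbb-bt and Adgre1 had no row under these symbols. What part each of these cell types had in the levels of the lipogenesis genes was not tested.

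Genes that regulate fatty acid synthesis had a median of 2.12 CPM, not corrected for length, and 3 of 12 were above 10 CPM. Insig1, which holds SREBP proteins in the endoplasmic reticulum and is itself a known SREBP target, had 190 CPM and 61.5 CPM per kilobase. Srebf2, the relative of Srebf1 that mainly drives cholesterol synthesis, was chosen after its value was seen. Srebf2 had 21.3 CPM and 2.97 CPM per kilobase, against 0.00114 CPM per kilobase for Srebf1, which rests on 1 read. RefSeq has 4 curated transcripts for Srebf1 and 1 for Srebf2, and the part of this in the levels was not tested. Mid1ip1, a relative of Thrsp, was listed with 1 read.

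Other genes that supply precursors and NADPH were all above 1 CPM, in contrast to Acly and Me1. Their median was 156 CPM, and 8 of 10 were above 10 CPM. Cs, which makes citrate in the mitochondria, had 585 CPM, and Idh1, a cytosolic source of NADPH, had 8.82 CPM. Slc25a1, which exports the citrate that Acly cleaves, had 147 CPM and 68.0 CPM per kilobase, against 0.104 CPM per kilobase for Acly. The NADPH-producing enzymes of the pentose phosphate pathway, G6pdx and Pgd, had 166 and 245 CPM. Slc25a1, G6pdx and Pgd were chosen after their values were seen. RefSeq has 1 curated transcript for Slc25a1, Cs and G6pdx, and 2 for Pgd and Idh1, as for Acly and Me1. The values of Acly and Me1 show only what was counted under the symbol, and the cause of the contrast was not tested.

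The other elongases and desaturases fell on both sides, as the lipogenesis genes did. Their median was 0.887 CPM, 4 of 12 were above 10 CPM, and 6 were under 1 CPM, among which Elovl7 and Hsd17b12 were listed without reads. Fads1, a desaturase of polyunsaturated fatty acids, had 305 CPM, and the lowest of those with reads was Elovl3 at 0.102 CPM. Elovl2 and Elovl5, elongases of polyunsaturated fatty acids that were chosen after their values were seen, had 63.2 and 20.1 CPM per kilobase, against 0.00792 for Elovl6.

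Triglyceride synthesis, which uses the fatty acids made, had a median of 7.35 CPM with 4 of 8 genes above 10 CPM. It ranged from Agpat2 at 0.165 CPM to the lipid droplet coat gene Plin2 at 432 CPM, and Mogat1 was listed without reads. Fatty acid oxidation, the opposing pathway, had a median of 96.7 CPM with 7 of 10 genes above 10 CPM, and Acadl, a dehydrogenase of its first step, was the highest at 360 CPM. The separate mitochondrial pathway of fatty acid synthesis had a median of 7.49 CPM over 5 genes, from Oxsm at 0.0953 CPM to Mecr at 57.3 CPM. Over the 10 lipogenesis genes the median was 0.792 CPM, and over all rows it was 0.0697 CPM. The order depended on the genes listed low. With only genes above 1 CPM, the median was 268 CPM for lipogenesis genes and 136 for fatty acid oxidation. These medians are not corrected for length, and no test was made.

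**Figure D5:**
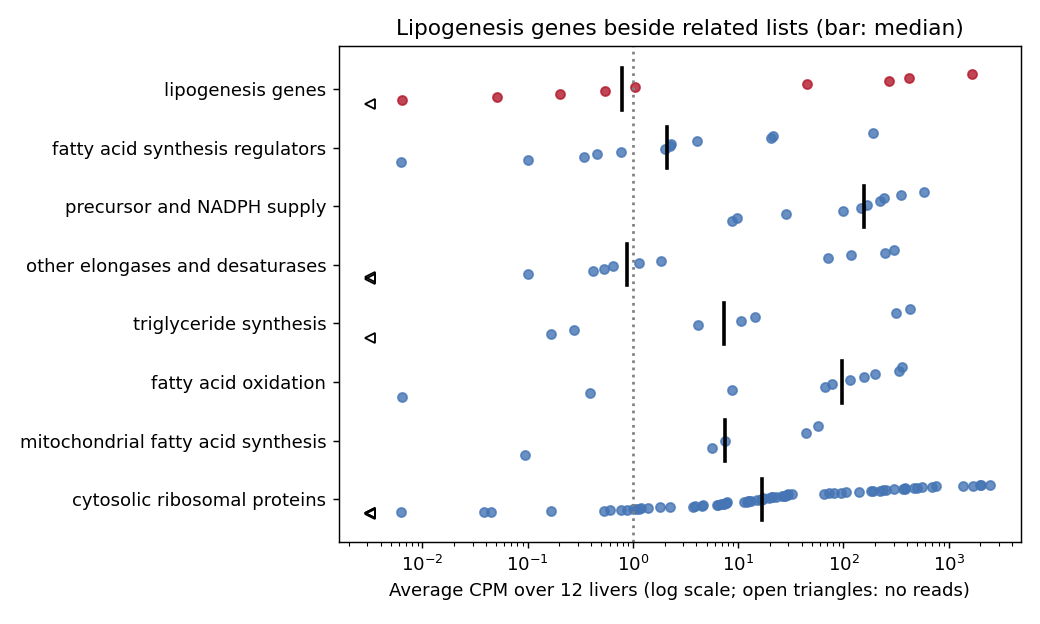
Average CPM on a log axis for the 10 lipogenesis genes, 6 related lists and the ribosomal protein genes, 1 point per gene, with a bar at each median, a dotted line at 1 CPM and open triangles for genes listed without reads. The lipogenesis genes run from no reads to 1647 CPM, and the ribosomal protein genes also run from no reads to 2440 CPM.

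By position, 4 of the 10 genes (Fasn, Acaca, Acly and Srebf1) lie on chromosome 11, and Scd1 and Scd2 lie on chromosome 19. The share of all rows on these chromosomes was not computed. Promoter windows of RefSeq on GRCm38.p6, from 250 bases before to 50 bases after a transcript start, were found for 8 of the 10 genes, in 11 windows, and not for Scd1 and Scd2. Each motif was searched on both strands. The CCAAT box, which NF-Y binds, stood in 7 of the 11 windows (Acacb, Acly, Fasn, Me1, Thrsp and 2 windows of Srebf1) and in 37.4% of all 32851 windows. The E-box CACGTG and the sterol response letters CACCCCAC stood in none of the 11 windows, and in 7.15% and 2.87% of all windows. TCANNTGA stood only in Thrsp (8.39% of all windows) and TATAAA only in Acacb (13.6% of all windows). These matches are descriptions of letters and were not compared with the levels by a test.

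The promoters of Fasn and Thrsp are shown because both held more than 1 CCAAT box while their levels per kilobase were 38.2 and 0.0917 CPM. Capitals mark CCAAT on either strand, and in Thrsp also TCANNTGA. In Fasn, CCAAT on one strand overlaps with CCAAT on the other. The Fasn stretch runs from 100 to 41 bases before the start (chr11:120824588-120824647, minus strand), and that of Thrsp from 120 to 41 bases before the RefSeq start (chr7:97417591-97417670, minus strand). The Thrsp stretch lies inside the gene span given above, because GENCODE places the first base of the gene further upstream than RefSeq does.
Fasn: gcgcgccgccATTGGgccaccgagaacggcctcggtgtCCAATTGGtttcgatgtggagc
Thrsp: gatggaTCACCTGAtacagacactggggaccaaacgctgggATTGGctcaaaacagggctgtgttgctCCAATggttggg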

How the data were processed

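Per the labels and the methods of the study, polyA-selected RNA was sequenced on an Illumina instrument from 1 whole fetal liver per library, 6 for each maternal diet. Reads were checked with fastqc and aligned by the authors to mm10 with Subread 1.3.6-p1, and cutadapt 1.2.1 is named in the submitters' processing notes. Genes were annotated with biomaRt, and the authors compared the diets with edgeR. The tool that counted reads per gene and its annotation are not given in the sources used here.

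The authors deposited 1 table with an average log2 CPM per gene over all libraries, in 2 identical copies. Its other 8 numeric columns hold fold changes, p-values and adjusted p-values of the comparison by diet under a common and a tagwise dispersion. They were not used. The planned quasi-likelihood test of the diets needs counts for each liver and was not run.

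CPM was computed as 2 to the power of the average minus the same for rows without reads. Reads were obtained by dividing by the median CPM of the 1267 rows with 1 read (0.00634 CPM), so that 1 CPM was worth about 13.1 reads in the mean library. The step from levels to reads was tested on simulated data, and reads above about 100 are approximate. The simulation started from the levels computed here and used assumed library sizes, prior count and dispersion. Whether these match the real libraries is not known.

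Gene positions, exons and transcripts came from GENCODE M21 on GRCm38, and promoters from RefSeq. Coding length leaves out the stop codon. Stretches of 50 bases of the longest coding transcript were sought in the GENCODE transcripts of other genes on both strands, and the rest of the genome was not searched. Protein sequences were not used here. The members and lists were chosen with earlier results of these data known. Genes named were the 10 members, the highest and lowest gene with reads of each related list, each gene of these lists without a row or reads, and the highest of each marker list. Others are given as chosen after their values were seen. Calculations ran in Python 3.11.15 (biopython 1.88, matplotlib 3.10.9, scipy 1.17.1, pandas 2.3.3, numpy 2.4.6).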

Additional observations from a re-analysis of the deposited data

How the results depend on the processing

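No paired analysis was possible because the table used here holds no values of single livers. For the same reason, other normalizations, low-count filters, DESeq2 and leaving out single livers were not run. The number of lipogenesis genes above 10 CPM was 4, and it was 4 at 5 and 20 CPM and 5 at 1 CPM. Without subtracting the prior count, an alternative chosen after seeing the data, it was 4 as well, and the median of the 10 genes was 0.944 CPM. With the length of the longest coding transcript, the ratio per kilobase was 5.43 for Scd2 to Scd1 and 7.26 for Scd2 to Fasn. With the coding length these ratios were 6.08 and 27.6, since most of both desaturase transcripts is noncoding. Acly kept its rank per kilobase with each length, whereas Acacb and Thrsp changed places. With only genes above 1 CPM, the medians were 4.06 CPM for regulators, 94.3 for other elongases and desaturases, 14.4 for triglyceride synthesis, 136 for fatty acid oxidation and 25.7 for mitochondrial fatty acid synthesis. That of precursor and NADPH supply was 156 CPM in both settings. For the lipogenesis genes it rose from 0.792 to 268 CPM, resting on 5 genes, and was then the highest of these lists. Elovl6, Srebf1 and Me1 rest on 8, 1 and 0 reads, and whether depth or the counting of reads sets these values was not tested.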

Other observations

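The genes listed low were also compared with the reference by the number of curated RefSeq transcripts and by shared sequence. All 5 lipogenesis genes at 1 CPM or more (Scd2, Fasn, Scd1, Acaca and Acacb) have 1 curated transcript, as do 2 of the 5 under 1 CPM (Elovl6 and Thrsp). Acly and Me1 have 2 each, and Srebf1 has 4. Among the ribosomal protein genes, 7 of the 12 under 1 CPM have more than 1 curated transcript, and 14 of the 66 at 1 CPM or more do. Single genes did not follow these counts. Hsd17b12, with 1 curated transcript, was listed without reads, and Rpl22, with 5, had 384 CPM. Both are given here after their values were seen. The share of all rows with more than 1 curated transcript was not computed. No 50-base stretch stood in another gene for 2 of the 5 lipogenesis genes under 1 CPM (Acly and Thrsp) and for 2 of the 5 at 1 CPM or more (Fasn and Acacb). Among the ribosomal protein genes, the median share of such stretches was 53.4% for those under 1 CPM and 46.1% for the rest. These comparisons were chosen after the levels were seen, and the part of these features in the levels was not tested.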
